A study of Homo sapiens with 8 samples.

Results

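The genes described here are 10 genes known as targets or components of YAP and TEAD transcription: CCN1, CCN2, ANKRD1, AMOTL1, AMOTL2, LATS2, AJUBA, AXL, TEAD4 and YAP1. They were taken by gene symbol from the platform annotation, which names 18852 genes, and all 16 probes it assigns to them were read on 8 Illumina bead arrays. The arrays carry RNA of 4 human embryonic stem cell lines, with 2 arrays per line, all grown under the same stem cell conditions. The control lines are H9, the parental line, and clone 3, a wild-type clone derived from it. The ZFX lines are clones 2 and 5 of H9, which received a bacterial artificial chromosome with the ZFX locus and were picked by drug resistance, so each ZFX line is 1 clone. ZFX encodes an X-linked zinc finger transcription factor. The labels do not say whether clone 3 was drug selected, nor whether a line's arrays stem from separate cultures, and p-values between lines measure the spread between arrays, which may be technical.

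YAP1 is a transcriptional coactivator that binds no DNA itself and reaches promoters and enhancers through TEAD factors such as TEAD4. The Hippo kinases, ending in LATS1 and LATS2, phosphorylate YAP1 and hold it in the cytoplasm. Cell contact and low tension favour this, while spreading and tension favour nuclear YAP1. CCN1 and CCN2, formerly CYR61 and CTGF, encode secreted matrix-associated proteins and are the most used readouts of YAP and TEAD activity. LATS2, AMOTL2 and AJUBA are both targets and regulators of the pathway. In human embryonic stem cells, YAP1 and TEAD factors are known to act in self-renewal and in the choice of mesendoderm fate.

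The core of the TEAD binding motif is GGAATG, or CATTCC on the other strand. RefSeq promoter windows of 300 bases, from 250 before to 50 after a gene start (GRCh38.p14), were found for 8 of the 10 genes. No window is shown for CCN1 or TEAD4. The windows of CCN2, AJUBA and AXL are shown up to the gene start: CCN2 for its 3 matches and its differences between lines, and AJUBA and AXL as genes that clone 3 had lower and higher than H9. Each is written 5′ to 3′ on the strand of its gene, with matches to the motif in capitals. CCN2 lies at chr6:131951373-131951622 on the minus strand, the AJUBA window at chr14:22976843-22977092 on the minus strand, and the AXL window at chr19:41226505-41226754 on the plus strand. AJUBA and AXL have 2 windows each, and the one with a match is shown.
CCN2: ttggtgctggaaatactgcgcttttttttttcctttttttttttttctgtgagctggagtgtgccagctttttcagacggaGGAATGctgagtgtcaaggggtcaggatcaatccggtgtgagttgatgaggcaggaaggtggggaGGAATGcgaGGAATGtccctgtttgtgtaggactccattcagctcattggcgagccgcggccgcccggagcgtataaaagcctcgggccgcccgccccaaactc
AJUBA: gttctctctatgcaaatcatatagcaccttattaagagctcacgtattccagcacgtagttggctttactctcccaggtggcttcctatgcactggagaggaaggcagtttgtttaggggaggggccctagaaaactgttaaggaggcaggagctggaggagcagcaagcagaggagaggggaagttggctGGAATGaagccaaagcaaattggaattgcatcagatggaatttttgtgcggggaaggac
AXL: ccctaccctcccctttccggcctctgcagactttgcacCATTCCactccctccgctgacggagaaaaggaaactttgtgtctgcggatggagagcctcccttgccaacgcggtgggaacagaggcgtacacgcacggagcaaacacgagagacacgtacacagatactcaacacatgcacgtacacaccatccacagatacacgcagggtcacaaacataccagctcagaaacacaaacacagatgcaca
The CCN2 window holds 3 matches, beginning at positions -169, -104 and -95 from the start. Of all 35116 windows in the table, 14% hold at least 1 match and 0.128% hold 3 or more. ANKRD1 had 2 matches, and AMOTL2, LATS2, AJUBA, AXL and YAP1 had 1 each, where AMOTL2, AJUBA and AXL had a second window without a match. AMOTL1 had none. These matches describe letters in these windows and do not show that a factor binds there.

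ZFX itself, the check of the labels, had a log2 fold of 1.34 (SE 0.163) between ZFX and control lines in limma, with an adjusted p of 0.000184. Between 19177 and 20588 probes were detected per array, where detected means a detection p under 0.05. Across the 23280 probes tested, arrays of a line correlated at 0.993 to 0.994. Clone 3 stood apart, with a mean correlation of 0.981 with arrays of the other lines, against 0.986 to 0.987 for H9, clone 2 and clone 5. Results that rest on clone 3 are therefore given beside those against H9.

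CCN1 was high in H9 and low in clone 3, with both ZFX lines between them. Its normalized log2 intensity was 10.78 and 10.63 on the arrays of H9, 9.06 and 9.14 on those of clone 3, 10.44 and 10.38 on those of clone 2, and 10.04 and 10.10 on those of clone 5. On this scale no line overlapped another, and each neighbour in this order differed beyond the spread between arrays in limma (adjusted p 0.0156 for H9 over clone 2, 0.0188 for clone 2 over clone 5, 4.75e-10 for clone 5 over clone 3). Under median scaling the first 2 of these steps did not pass in limma (adjusted p 0.29 and 0.802). Their calls were also lost in some fits with an array left out, as given below. In the deposited intensities, before normalization, the arrays of clone 3 read 600.4 and 619.6 and all other arrays read 973.7 to 2101. There the arrays of clone 5 (1270 and 973.7) overlapped those of clone 2 (1382 and 1188).

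CCN2 was measured by 2 probes that gave the same grouping, with H9 and clone 2 high, clone 5 lower and clone 3 lowest. For probe ILMN_2115125 the log2 intensity was 11.51 and 11.63 in H9, 10.69 and 10.80 in clone 3, 11.68 and 11.50 in clone 2, and 11.13 and 10.93 in clone 5. For probe ILMN_1699829 it was 11.59 and 11.38 in H9, 10.71 and 10.71 in clone 3, 11.48 and 11.48 in clone 2, and 10.99 and 10.96 in clone 5. H9 and clone 2 overlapped on both probes. Clone 5 and clone 3 did not overlap on either, at adjusted p of 0.0255 and 0.0259 in limma. These calls were lost in fits with an array left out, which leave 1 array in a line. ILMN_2115125 lost its call without clone 3 replicate 1 (log2 fold 0.22) or clone 5 replicate 1 (log2 fold 0.18). ILMN_1699829 lost its call without any 1 of the 4 arrays, though its log2 fold stayed at 0.25 to 0.28. In the deposited intensities clones 5 and 3 did overlap, since clone 5 replicate 2 read 1706 and 1746 and the arrays of clone 3 read 1770 to 1882. Unlike CCN1, CCN2 had no measurable gap between H9 and clone 2, with log2 folds of 0.02 (95% interval -0.16 to 0.20) and -0.01 (95% interval -0.17 to 0.16).

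**Figure D1:**
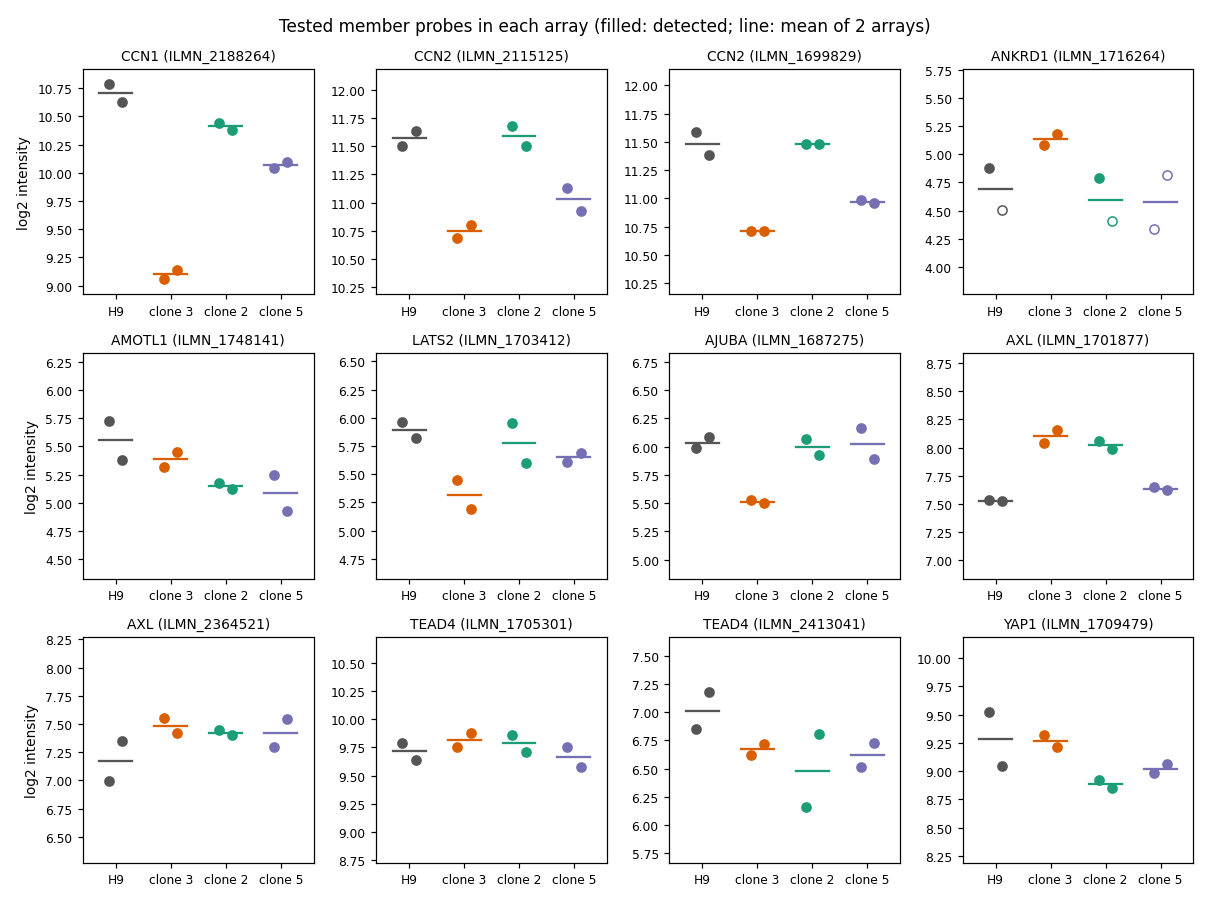
Log2 intensity (y axis, normexp-corrected and quantile normalized) of the 12 tested probes of the gene set in each array of the 4 lines (x axis). Each point is 1 array, filled where the probe was detected, and each bar is the mean of 2 arrays. CCN1 and CCN2 are lowest in clone 3 (9.06 to 9.14 for CCN1), and AXL probe ILMN_1701877 is lowest in H9.

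**Figure D2:**
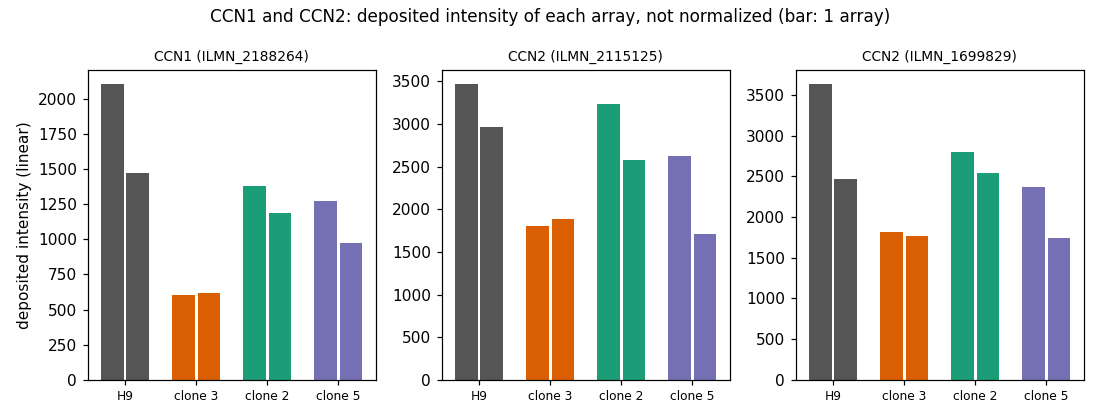
Deposited linear intensity (y axis, not normalized) of the CCN1 probe and both CCN2 probes, with 1 bar per array for the 4 lines (x axis). The 2 clone 3 bars of CCN1 stand at 600.4 and 619.6, below all others.

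LATS2 and AJUBA, which act on YAP1 from the Hippo side, were dim but detected on all 8 arrays, and clone 3 was again lowest. LATS2, the kinase that phosphorylates YAP1, had a log2 intensity of 5.96 and 5.82 in H9, 5.45 and 5.19 in clone 3, 5.96 and 5.60 in clone 2, and 5.61 and 5.69 in clone 5. AJUBA, a LIM protein that restrains LATS kinases, read 5.99 and 6.08 in H9, 5.53 and 5.50 in clone 3, 6.06 and 5.92 in clone 2, and 6.16 and 5.89 in clone 5 on probe ILMN_1687275. For both genes the arrays of clone 3 lay below all other arrays, while clone 2 overlapped both H9 and clone 5. Neighbours in the order of LATS2 levels did not pass the test (adjusted p 0.197 to 0.786). For AJUBA only the step from clone 2 down to clone 3 passed (adjusted p = 0.034).

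AXL, a receptor tyrosine kinase and a YAP target in many cell types, went the other way. Probe ILMN_1701877 read 7.53 and 7.52 in H9, 8.04 and 8.15 in clone 3, 8.06 and 7.99 in clone 2, and 7.65 and 7.62 in clone 5. Clones 3 and 2 were high and overlapped, clone 5 and H9 were low, and only the step between clone 2 and clone 5 passed between neighbours (adjusted p = 0.0299). The second AXL probe, ILMN_2364521, gave the same order of line means, and 0 of its 6 line pairs passed in limma. It read 6.99 and 7.35 in H9, 7.55 and 7.42 in clone 3, 7.44 and 7.41 in clone 2, and 7.30 and 7.55 in clone 5.

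The coactivator YAP1 was well detected on all arrays. Its log2 intensity was 9.53 and 9.05 in H9, 9.32 and 9.22 in clone 3, 8.92 and 8.85 in clone 2, and 8.98 and 9.06 in clone 5. The arrays of H9 lay far apart (SD 0.340, against 0.0516 to 0.0722 in the other lines) and enclosed both arrays of clone 3. TEAD4, a DNA-binding partner of YAP1, varied little on its bright probe ILMN_1705301, with all arrays between 9.58 and 9.88. Its second probe ILMN_2413041 read 6.85 and 7.17 in H9, 6.62 and 6.72 in clone 3, 6.16 and 6.81 in clone 2, and 6.52 and 6.73 in clone 5, so the arrays of clone 2 enclosed both arrays of clones 3 and 5. Probes of TEAD4 therefore disagreed on the order of lines.

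AMOTL1 and ANKRD1 were near background. AMOTL1, an angiomotin that binds YAP1 at cell junctions, read 5.73 and 5.38 in H9, 5.32 and 5.45 in clone 3, 5.18 and 5.12 in clone 2, and 5.25 and 4.93 in clone 5. All 4 arrays of the ZFX lines lay below all 4 arrays of the control lines. ANKRD1, an ankyrin repeat protein of muscle and a strong YAP target elsewhere, was detected on 4 of 8 arrays. It read 4.88 and 4.50 in H9, 5.08 and 5.18 in clone 3, 4.79 and 4.41 in clone 2, and 4.34 and 4.81 in clone 5, where the dimmest detected probe of an array stood at 4.76 to 4.82. Both arrays detected it in clone 3, and 0 of 2 in clone 5, where its level is only a bound. AMOTL2 was detected on 0 arrays. It was not tested, nor were 2 AJUBA probes (detected on 1 and 0 arrays) and 1 TEAD4 probe (detected on 0), and these 4 probes read 4.24 to 5.00 throughout.

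The main comparison asked whether these genes differed between the ZFX lines and the control lines, with the line as a random block in limma. None of the 12 tested probes, from 9 genes, passed at an adjusted p under 0.05, where 1.63% of all 23280 probes did. At an unadjusted p under 0.05 there was 1 probe, YAP1, against 9.94% of all probes. Log2 folds of the 12 probes ran from -0.35 for AMOTL1 to 0.34 for CCN1, with adjusted p from 0.341 to 0.995. The median was 0.06, against -0.0043 over all probes, and 7 folds were above 0 and 5 below.

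The intervals of these folds use 1 correlation between arrays of a line (0.352), shared by all probes. For CCN1, whose control lines stood at 10.71 and 9.10, the interval understates the spread between lines. The log2 fold was 0.34 for CCN1 (SE 0.289, 95% interval -0.27 to 0.94), and 0.15 (SE 0.193) and 0.13 (SE 0.178) for the probes of CCN2. It was -0.33 for YAP1 (SE 0.130, 95% interval -0.60 to -0.05, limma adjusted p = 0.341), and -0.35 for AMOTL1 (SE 0.173). ANKRD1, detected on 1 of 4 ZFX arrays and 3 of 4 control arrays, did not pass (adjusted p = 0.705), and its fold rests on signal at background. AMOTL1 was the only tested probe of the set whose ZFX and control arrays did not overlap, and 4.5% of all probes were separated in that direction. The remaining folds were 0.23 for AJUBA, 0.11 for LATS2, 0.02 and 0.10 for AXL, and -0.04 and -0.29 for TEAD4.

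CCN1 turned direction with the choice of control line. Against H9 alone its log2 fold in the ZFX lines was -0.47 (limma adjusted p = 0.0133), and against clone 3 alone 1.14 (adjusted p = 1.06e-07). With H9 as the only control 1 probe of the set passed, CCN1, and 5.26% of all probes did. With clone 3 alone 6 passed, and 13.3% of all probes did: higher in the ZFX lines were CCN1, both CCN2 probes (0.56 and 0.51) and AJUBA (0.50), and lower were YAP1 (-0.32) and ANKRD1, which only 1 of the 4 ZFX arrays detected, so that its fold is not given. With line fixed, where p-values measure only the spread within lines, CCN1 (0.34) and YAP1 (-0.33) passed, 2 of 12 probes where 14.1% of all probes did.

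**Figure D3:**
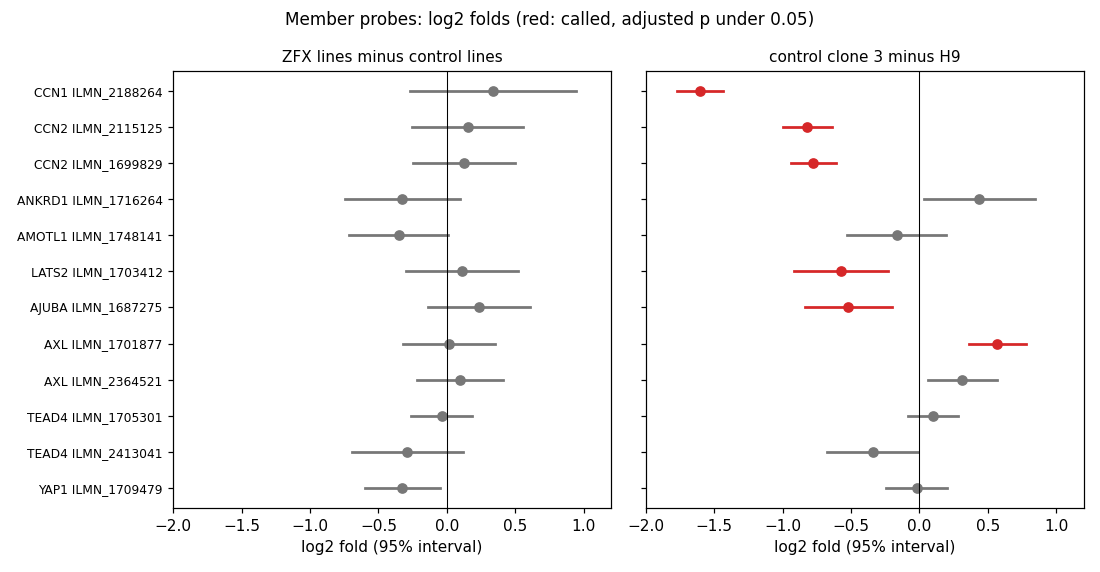
Log2 folds (x axis) with 95% intervals of the 12 tested probes (y axis), for ZFX over control lines on the left and for control clone 3 over H9 on the right. Red marks probes with a limma adjusted p under 0.05: 0 on the left and 6 on the right, led by CCN1 at -1.61.

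The comparison of the 2 control lines held the largest fold of any tested probe of the set in any of the 7 comparisons, that of CCN1. In clone 3 against H9, 6 of 12 tested probes passed in limma, where 19% of all probes did, with 5 lower and 1 higher. Of all probes 9.8% passed as lower and 9.18% as higher. CCN1 had a log2 fold of -1.61 (SE 0.0832, adjusted p = 1.15e-14), or 3.04-fold lower in clone 3. The CCN2 probes had -0.82 (SE 0.0878, adjusted p = 5.31e-08) and -0.77 (SE 0.0816, adjusted p = 4.1e-08), or 1.77-fold and 1.71-fold lower. LATS2 fell by 0.57 (adjusted p = 0.0155) and AJUBA by 0.52 (adjusted p = 0.0175), while AXL rose by 0.57 on probe ILMN_1701877 (adjusted p = 0.000138). The folds of the 6 probes that did not pass were 0.44 for ANKRD1, 0.31 for the other AXL probe, 0.10 and -0.34 for TEAD4, -0.17 for AMOTL1 and -0.02 for YAP1 (95% interval -0.24 to 0.20).

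The folds of the dimmer probes were smaller in the authors' deposited log2 values, whose background handling is unknown. There, clone 3 over H9 came to -1.48 for CCN1 and -0.81 and -0.765 for CCN2, but -0.185 for LATS2, -0.18 for AJUBA and 0.395 for AXL. LATS2 lost its call without H9 replicate 1 (adjusted p = 0.0985) or clone 3 replicate 2 (adjusted p = 0.175). AJUBA lost its call without H9 replicate 2, clone 3 replicate 1 or clone 3 replicate 2 (adjusted p 0.0769 to 0.115). Under median scaling AJUBA (adjusted p = 0.0772) and AXL (adjusted p = 0.0547) missed the threshold.

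Lineage markers also differed between the control lines, where 9.18% of all probes passed as higher in clone 3 and 9.8% as lower. Of 8 tested markers of the primitive streak and mesendoderm, 7 were higher in clone 3 than in H9, and the summed level of the 9 annotated markers was 2829 to 2909 in clone 3 and 167.7 to 179.2 in H9, as linear intensity above the offset. EOMES, TBXT, MIXL1, GSC, SP5, FGF8 and CER1 were the 7, and MESP1 was not detected in either line. In the ZFX lines the same sum was 87.65 to 117.3 in clone 2 and 73.05 to 88.53 in clone 5. Of 7 tested markers of mesenchyme and fibroblasts, 4 were lower in clone 3 than in H9 (COL1A1, COL1A2, THY1 and PDGFRB) and TAGLN was higher. The sums over 10 markers were 5140 to 5275 in clone 3 and 4525 to 4553 in H9. That higher sum comes from TAGLN, at a mean log2 intensity of 11.70 in clone 3 and 10.79 in H9, against the direction of the 4 lower markers. POSTN and LUM were not detected in any line. Trophoblast and amnion markers summed to 328.5 to 359.5 in clone 3 and 184.7 to 211.6 in H9, with 2 of 7 tested higher (TFAP2C and ISL1) and CDX2 and CGA not detected in either. The higher sum was not particular to clone 3: it was 277.3 to 295.3 in clone 2 and 259.5 to 266.1 in clone 5. It largely follows TFAP2C, the brightest of the 7 tested, at a mean log2 intensity of 7.88 in clone 3 and 6.51 in H9. TFAP2C was higher than in H9 by 1.07 in clone 2 and 0.82 in clone 5 on the log2 scale. It was the only gene of this list called higher in those lines. GATA3, CGA and CGB5 were not detected in any of the clones. Of 8 pluripotency markers, 7 were annotated and detected in every line, with sums of 17530 to 19020 in clone 3 and 19570 to 20080 in H9. NANOG was higher in clone 3, and POU5F1 and DNMT3B lower. The part of these markers in the differences of CCN1, CCN2, LATS2, AJUBA and AXL was not tested.

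Each ZFX line was then set against H9, comparisons that share the H9 arrays. In clone 2, 4 of 12 probes passed in limma, where 14.3% of all probes did, 7.65% as higher and 6.63% as lower. CCN1 was lower, with a log2 fold of -0.29 (SE 0.0832, adjusted p = 0.0156), as were YAP1 at -0.40 (SE 0.108, adjusted p = 0.0111) and TEAD4 probe ILMN_2413041 at -0.53 (SE 0.162, adjusted p = 0.0255). AXL probe ILMN_1701877 was higher at 0.50 (SE 0.102, adjusted p = 0.00105). In clone 5, 3 probes passed, where 5.07% of all probes did, 2.3% as lower. CCN1 had a log2 fold of -0.64 (SE 0.0832, adjusted p = 6.97e-06), and the CCN2 probes had -0.54 (adjusted p = 0.000179) and -0.51 (adjusted p = 0.000134). YAP1 in clone 5 had a fold of -0.27 that did not pass (adjusted p = 0.171), and that was -0.51 without H9 replicate 2 (adjusted p = 0.00338) and -0.03 without H9 replicate 1 (adjusted p = 0.933). For clone 2, each fit that left 1 array in either line passed fewer of all probes. CCN1 lost its call without H9 replicate 1, clone 2 replicate 1 or clone 2 replicate 2 (log2 fold -0.32 to -0.22). YAP1 lost its call without H9 replicate 1 (log2 fold -0.16) or clone 2 replicate 2 (-0.37). TEAD4 lost its call without H9 replicate 2 (log2 fold -0.37) or clone 2 replicate 1 (-0.20). Under median scaling 0 probes of the set passed in either comparison, where 3.02% of all probes did for clone 2 and 1.07% for clone 5.

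Against clone 3, each ZFX line had 5 called probes of 12, where 15.3% of all probes passed for clone 2 and 16.4% for clone 5. In each, 4 were higher and 1 lower. Over all probes 8.2% passed as higher and 7.12% as lower for clone 2, and 8.74% and 7.68% for clone 5. CCN1 was higher by 1.31 on the log2 scale in clone 2 (SE 0.0832) and by 0.97 in clone 5 (SE 0.0832). The CCN2 probes were higher by 0.84 and 0.77 in clone 2 and by 0.28 and 0.26 in clone 5, and AJUBA by 0.48 and 0.51 in clones 2 and 5. The lower probe was YAP1 in clone 2 (-0.38, adjusted p = 0.0141) and AXL probe ILMN_1701877 in clone 5 (-0.46, adjusted p = 0.00142). ANKRD1, undetected in clone 5, was at the threshold of the test there and did not pass in limma (adjusted p = 0.0524), while 7 of 16 alternatives passed. Its log2 fold against clone 3 was -0.56, but -0.175 in the authors' deposited values, so the size of this fold near background is not known. Each fit that left 1 array in either line of a pair passed fewer of all probes, and most passed fewer of the set. AJUBA lost its call in clone 2 without any 1 of the 4 arrays of clones 2 and 3 (log2 fold 0.41 to 0.55). In clone 5 it lost its call without either array of clone 3 or clone 5 replicate 1 (log2 fold 0.37 to 0.53). Under median scaling the CCN2 folds of clone 5 over clone 3 were 0.18 and 0.16 (adjusted p 0.71 and 0.757). Across the 4 pairings of a ZFX with a control line, 0 tested probes of the set passed in the same direction each time, where 1.02% of all probes did so as higher and 0.61% as lower.

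The 2 ZFX lines differed from each other in CCN2 on both probes, and less firmly in CCN1 and on 1 probe of AXL. In clone 5 against clone 2, 4 of 12 probes passed, all lower, where 2.93% of all probes passed and 1.87% as lower. The CCN2 probes had log2 folds of -0.56 (SE 0.0878, adjusted p = 0.000298) and -0.51 (SE 0.0816, adjusted p = 0.000424), CCN1 -0.34 (SE 0.0832, adjusted p = 0.0188), and AXL probe ILMN_1701877 -0.39 (SE 0.102, adjusted p = 0.0299). The other AXL probe, ILMN_2364521, had a log2 fold of -0.0007 in limma (adjusted p = 0.998). The calls of CCN1 and AXL were lost without any 1 of the 4 arrays of these lines, which left the 2 CCN2 probes. Under median scaling, none of the 12 passed in this pair, where 0.21% of all probes did, and the CCN2 folds were -0.48 and -0.42.

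Other genes of the Hippo pathway were described from 4 lists, with the brightest kept probe of each gene. Between ZFX and control lines, 0 of 13 tested further YAP targets, 0 of 10 kinases and scaffolds of the core, 0 of 6 coactivators and TEAD partners, and 0 of 11 upstream and junctional genes passed in limma. Of all probes 1.63% passed, so 0 calls in lists this short carry little information. At an unadjusted p under 0.05 the counts were 1, 0, 0 and 1, where 9.94% of all probes passed. The list medians were -0.09, -0.03, -0.02 and -0.06 on the log2 scale.

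In clone 3 against H9, where 19% of all probes passed, 3 further targets were lower and 1 higher, and 9 did not pass (median -0.08, against -0.02 over all probes). ASAP1, an Arf GTPase-activating protein, had a log2 fold of -0.66 (SE 0.0886, adjusted p = 2.73e-06). NUAK2, a kinase of the AMPK family, had -0.61 (SE 0.133, adjusted p = 0.00123), and FJX1, a four-jointed homologue, had -0.58 (SE 0.124, adjusted p = 0.00104). GADD45A, a stress-response gene named after its value was seen, was higher at 0.44. None of the 10 core genes passed. VGLL4, which competes with YAP1 for TEAD factors, was the 1 call among 6 coactivators and TEAD partners, higher at 0.53 (SE 0.0974, adjusted p = 0.000211). WTIP, a LIM protein of the AJUBA family, was the 1 call among 11 upstream and junctional genes, higher at 0.43 (SE 0.133, adjusted p = 0.0214).

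NUAK2 was 1 of 2 further targets called higher in clone 2 than in H9, the other being PTPN14. The lower calls there were also 2 of the 13 tested, ASAP1 (-0.48, adjusted p = 0.000369) and IGFBP3, where 7.65% of all probes passed as higher and 6.63% as lower. The mean log2 intensity of NUAK2 over the 2 arrays was highest in clone 2, at 7.59 (SD 0.188), followed by H9 with 6.75 (SD 0.116), clone 5 with 6.38 (SD 0.0933) and clone 3 with 6.13 (SD 0.0380). In clone 2 it was higher than in H9 by 0.84 (adjusted p = 5.54e-05) and than in clone 3 by 1.45 (adjusted p = 1.71e-09), and clone 5 was at -1.21 against clone 2 (adjusted p = 1.99e-06). WTIP was higher than in H9 in all 3 clones, by 0.43 in clone 3, 0.62 in clone 2 (adjusted p = 0.00154) and 0.57 in clone 5 (adjusted p = 0.00799). VGLL4 was higher than in H9 by 0.30 in clone 2 (adjusted p = 0.0378), and its fold of 0.22 in clone 5 did not pass (adjusted p = 0.215).

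**Figure D4:**
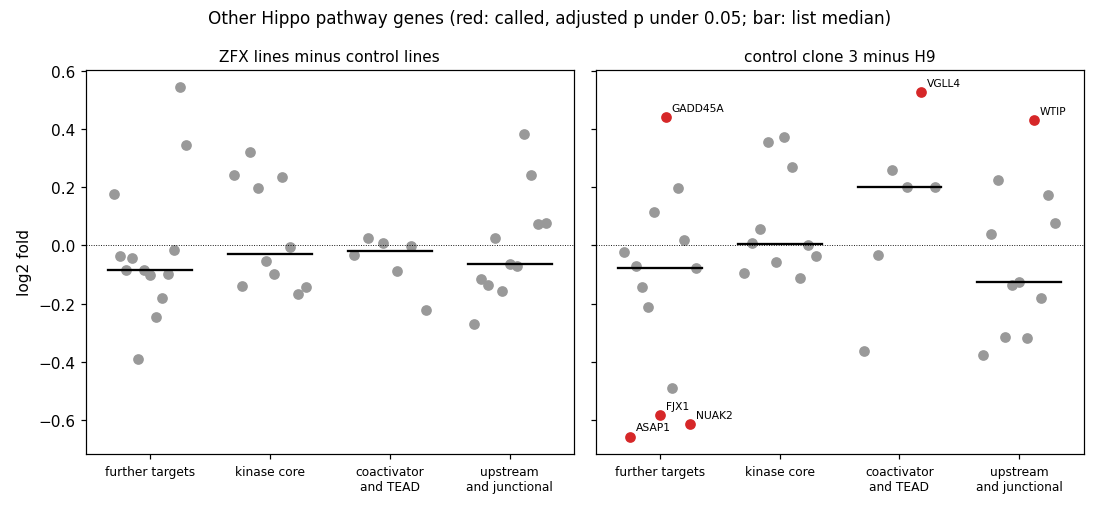
Log2 folds (y axis) of the tested genes of the 4 Hippo pathway lists (x axis), for ZFX over control lines on the left and clone 3 over H9 on the right. Each point is 1 gene, red where its limma adjusted p was under 0.05, and bars are list medians. None is red on the left, where 1.63% of all probes passed. On the right 6 are red, where 19% of all probes passed, from ASAP1 at -0.66 to VGLL4 at 0.53.

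The genes most like CCN1 and CCN2 over the 8 arrays were sought among 469 and 470 named genes whose line means spanned at least 1 log2 unit. The arrays of a line share their source, so these correlations describe 4 lines and carry no p. CCN1 was most like PDGFA, a growth factor (r = 0.979), CCDC184 (r = 0.969) and NPTX2, a neuronal pentraxin (r = 0.959). CCDC184 was detected on 0 of 2 arrays of clone 3 (mean 4.38), so its span and its r rest partly on background. PDGFA had mean log2 intensities of 6.997 in H9, 5.96 in clone 3, 7.01 in clone 2 and 6.67 in clone 5. CCN2 was most like ALKAL2, a ligand of the ALK receptor (r = 0.945), KCTD12 (r = 0.942) and CSRP1, a cysteine-rich LIM protein (r = 0.925). CSRP1 had means of 6.35 in H9, 5.12 in clone 3, 6.75 in clone 2 and 5.66 in clone 5. Within the set, CCN1 correlated over the 8 arrays with CCN2 at 0.899, LATS2 at 0.885 and AJUBA at 0.859, and with YAP1 at -0.193. CCN1 gave -0.639 with AXL, -0.613 with ANKRD1, which was near background, -0.275 with TEAD4 and 0.072 with AMOTL1.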

How the data were processed

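The authors deposited linear intensity, a detection p-value beside each intensity, and a table of processed log2 values. Per the submitters' processing notes the software was BeadStudio; its version and further steps are not given in the sources used here. The deposited log2 values share all quantiles between arrays and rank probes like their own array (0.99975); their background handling is unknown, so they served as an alternative.

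Intensity was background corrected by normexp with inferred negative controls and an offset of 16, then quantile normalized (limma 3.58.1, R 4.3.3). Of 48802 probes, the 23280 detected (p under 0.05) on 2 or more arrays were each tested singly. Gene symbols came from the platform annotation of 2016 and matched the RefSeq gene table by Entrez ID for 28059 of 28098 probes with 1 symbol. ZFX and control lines were compared with line as a random block (correlation 0.352), and line pairs in a model of 4 line means, both with eBayes, an intensity-dependent prior and adjustment by Benjamini-Hochberg over all kept probes. The fits were tested on simulated data.

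The gene set and lists were chosen with earlier results of these data known. Named were all probes of the set, ZFX, up to 3 called genes per pathway list with the largest fold in ZFX over control lines and in clone 3 over H9, and 3 genes most like CCN1 and CCN2. Alternatives varied background, scaling, filter, probe choice, trend, block, control and ZFX lines, and left out each array. Same-numbered arrays of different lines did not deviate together (correlations -0.00908 to 0.0571). Lines of 2 arrays are too small for a test of outlying arrays. TDGF1 was not analysed here. Plots came from matplotlib 3.10.9 (Python 3.11.15).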

Additional observations from a re-analysis of the deposited data

Results flagged for a closer look

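In 3 genes the fold over H9 differed between the ZFX lines, by the test of clone 5 against clone 2 in limma, in which H9 cancels. The difference of clone 5 minus clone 2 on the log2 scale was -0.56 and -0.51 for the CCN2 probes, -0.34 for CCN1 and -0.39 for AXL probe ILMN_1701877. For CCN2 the fold over H9 was 0.02 and -0.01 in clone 2 and -0.54 and -0.51 in clone 5. For CCN1 both clones lay below H9, at -0.29 and -0.64. For AXL the fold was 0.50 in clone 2, while the 0.11 of clone 5 did not pass, and the second AXL probe did not differ beyond its spread (log2 fold -0.00, 95% interval -0.26 to 0.25). The numbers of detected probes were 20083 and 19527 on the arrays of clone 2, and 20232 and 19267 on those of clone 5; their part in these differences was not tested. Under median scaling and without an intensity trend none of these 4 probes passed.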

How the results depend on the processing

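The absence of called probes of the set between ZFX and control lines held with the authors' values, without background correction, with an offset of 50, under median scaling, without the filter, with 1 probe per gene, without an intensity trend, with the replicate number as a block (0), with line ignored, with line means, with either ZFX line alone and in all fits with an array left out (0 to 0). In these alternatives 0.0558% (line means) to 2.8% (line ignored) of all probes passed, so 0 called probes of the set say little there. The absence did not hold with line fixed (2 called, where 14.1% of all probes were) or with H9 as the only control (1, where 5.26% of all probes passed and CCN1 turned to -0.465969). Nor did it hold with clone 3 as the only control (6, where 13.3% of all probes passed). In clone 3 over H9 the count stayed within 1.5 times of 6 in every alternative run (4 to 6 with an array left out). Under median scaling the counts were 0 for clone 2 over H9, 0 for clone 5 over H9, 3 for clone 2 over clone 3, 1 for clone 5 over clone 3 and 0 for clone 5 over clone 2, where 3.02%, 1.07%, 6.68%, 6.64% and 0.21% of all probes passed. Without an intensity trend they were 1 for clone 2 over H9, 1 for clone 5 over H9, 3 for clone 5 over clone 3 and 0 for clone 5 over clone 2, where 6.65%, 1.37%, 10.5% and 0.168% of all probes passed. For clone 3 over H9 the share of all probes was 6.23% under median scaling and 11.5% without the trend, against 19%. The cause was not tested. With an array left out the ranges were 2 to 4 for clone 2 over H9, 3 to 4 for clone 5 over H9, 3 to 5 for clone 2 over clone 3, 2 to 7 for clone 5 over clone 3 and 2 to 4 for clone 5 over clone 2. With the replicate block the counts of the set were as in the fits without it, while 253 rather than 380 of all probes passed between ZFX and control lines. The replicate numbers do not pair the arrays. Where an array was left out, the lone array of its line was taken to vary like those of the other lines. In each line pair with that line, fewer of all probes then passed than with all arrays. Over the folds of single probes in all comparisons and alternatives, 1251 kept direction and side of the threshold, 68 lost and 22 gained a call, 1 reversed, and 65 turned sign without a call on either side. Signals near background, those of LATS2, AJUBA, AMOTL1 and ANKRD1, limit the size of their folds.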
